A study of Mus musculus with 12 samples.

Results

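The D-type cyclins Ccnd1, Ccnd2 and Ccnd3, their kinases Cdk4 and Cdk6, and 5 inhibitors of these kinases (Cdkn1a, Cdkn1b, Cdkn1c, Cdkn2b and Cdkn2c) were followed in the mammary glands of 12 mice that had or lacked Ccnd1. The members were the 26 probe sets whose only gene symbol in the array's annotation is 1 of these 10 genes, out of 45101 probe sets on the array. Total RNA was measured on 12 single-colour Affymetrix arrays, 1 mouse per array, in 4 groups of 3: Ccnd1+/+ (wildtype) on placebo, Ccnd1+/+ on estradiol, Ccnd1-/- (knockout) on placebo and Ccnd1-/- on estradiol. All 12 were virgin mice of the C57BL/6 background without ovaries, which removes the main source of estrogen, and were treated for 7 days with placebo or with pellets holding 0.72 mg of estradiol for release over 60 days. The labels give no age, no gland position and no description of the deleted part of the gene, and they describe a deletion in the whole animal rather than in a chosen cell type.

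Cells enter the division cycle when D-type cyclins bind Cdk4 or Cdk6 and the active kinase phosphorylates the retinoblastoma protein, which then frees E2F transcription factors to switch on genes of DNA synthesis. Inhibitors of the INK4 family, here Cdkn2b (p15) and Cdkn2c (p18), bind Cdk4 and Cdk6 and keep the cyclin off, whereas Cdkn1a (p21), Cdkn1b (p27) and Cdkn1c (p57) of the Cip/Kip family bind whole cyclin and kinase complexes. Cyclin D1 is the member best known in mammary epithelium, where its loss impairs the growth of milk-producing alveoli in pregnancy, and the D-type cyclins can replace each other in part, so the comparison of genotypes asks whether Ccnd2, Ccnd3, a kinase or an inhibitor was higher or lower where Ccnd1 was missing.

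Values are log2 intensities, on which a difference of 1 is a doubling, and a difference was called at an adjusted p under 0.05 in limma (Benjamini-Hochberg over all 45037 probe sets that are not controls). Array medians lay between 5.73 and 5.80, and pairs of arrays correlated at 0.945 to 0.992. Of 25 measured luminal, basal and myoepithelial marker genes none lay under the lower quartile of its array on all 12 arrays (Krt17 did on 11, Elf5 on 3 and Ehf on 2). A single array above the quartile meets this rule, so it does not show epithelium in each group. The mean level of the luminal markers was 6.80 to 7.43 in wildtype placebo and 7.78 to 9.12 in wildtype estradiol. It was 5.48 to 7.04 in knockout placebo and 5.46 to 6.37 in knockout estradiol. Arrays of 1 group differed in the tissues around the epithelium. The lymphocyte score, the mean of centred T and B cell marker levels, was 2.21, 1.66 and -1.89 in wildtype placebo arrays 1 to 3, -1.97, 0.63 and -2.14 in wildtype estradiol, 1.77, -1.80 and 1.85 in knockout placebo and -2.00, 1.42 and 0.28 in knockout estradiol. The skeletal muscle score over 10 markers varied more: 1.90, 3.79 and -1.19 in wildtype placebo, 1.40, -0.19 and 0.81 in wildtype estradiol, -3.38, 2.01 and -3.68 in knockout placebo and 2.45, -2.86 and -1.07 in knockout estradiol. Its markers were below 0 in 10 of 10 for genotype under placebo (median -3.17) and in 9 of 10 under estradiol (median -1.10), with none called, and the part of muscle in the members' differences was not tested. The luminal score over 14 of 16 markers ranged from -0.11 to 0.52 in wildtype placebo, 0.87 to 2.21 in wildtype estradiol, -1.43 to 0.12 in knockout placebo and -1.45 to -0.55 in knockout estradiol. In whole tissue, fewer cells of a type and less RNA per cell cannot be told apart, and this holds for every value that follows.

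Promoter sequence was at hand for 7 of the 10 members, in 10 windows of 250 bases before to 50 after a transcript start (RefSeq, GRCm38.p6). Ccnd1, Ccnd2 and Cdkn1c had no window, so no motif was sought in them. The wildtype estradiol arrays of Ccnd1 and Cdkn1c also lay above the placebo arrays. The 3 windows printed here belong to members whose estradiol differences in wildtype are described further on: Cdkn2b, the inhibitor that passed the test, Cdk4, whose 3 probe sets all separated the groups, and Cdkn1a. Capitals mark the GC box GGGCGG on either strand, the core of sites bound by Sp1, a factor through which estrogen receptors can act without touching their own element. For Cdkn1a the downstream of its windows is shown.
Cdkn2b, chr4:89310983-89311282, minus strand: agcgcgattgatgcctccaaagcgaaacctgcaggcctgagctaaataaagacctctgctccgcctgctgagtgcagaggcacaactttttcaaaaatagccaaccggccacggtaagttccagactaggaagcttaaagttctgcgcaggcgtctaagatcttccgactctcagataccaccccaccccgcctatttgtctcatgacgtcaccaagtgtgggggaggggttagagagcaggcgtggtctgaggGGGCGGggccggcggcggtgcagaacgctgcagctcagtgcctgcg
Cdk4, chr10:127063285-127063584, plus strand: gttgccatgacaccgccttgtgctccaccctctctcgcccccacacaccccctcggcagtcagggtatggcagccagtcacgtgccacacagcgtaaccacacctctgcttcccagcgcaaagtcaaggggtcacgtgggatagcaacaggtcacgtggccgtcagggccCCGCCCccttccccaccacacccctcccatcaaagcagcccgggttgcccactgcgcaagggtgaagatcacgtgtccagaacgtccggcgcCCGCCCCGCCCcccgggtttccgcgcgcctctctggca
Cdkn1a, chr17:29093519-29093818, plus strand: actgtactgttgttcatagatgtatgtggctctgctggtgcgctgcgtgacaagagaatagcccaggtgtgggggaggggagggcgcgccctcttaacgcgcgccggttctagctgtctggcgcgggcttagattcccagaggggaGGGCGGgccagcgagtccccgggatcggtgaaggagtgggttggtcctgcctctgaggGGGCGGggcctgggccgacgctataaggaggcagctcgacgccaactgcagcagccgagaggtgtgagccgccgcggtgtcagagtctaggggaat

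The GC box was present once in the Cdkn2b window, at 3 places in the Cdk4 window (of which 2 overlap by 1 base) and at 2 places in the Cdkn1a window shown, and it was absent from the upstream Cdkn1a window at chr17:29090729-29091028. The box was also at 2 places in each Ccnd3 window, at 1 in the Cdkn1b window and at 4 in the Cdkn2c window at chr4:109666707-109667006. For these 3 genes the wildtype estradiol and placebo arrays overlapped, so the box does not set apart the members printed here. It is found in 35.7% of 32851 promoter windows of this length. The full estrogen response element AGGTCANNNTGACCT was in none of the 10 windows and in 0.0213% of all windows. Its core GGTCA, which the full element contains, was found at 2 places in the Cdk4 window and not in the printed Cdkn2b and Cdkn1a windows, against 40.5% of all windows with at least 1. That core was also at 1 place in each Ccnd3 window and in the Cdkn2c window at chr4:109665323-109665622. The AP-1 site TGANTCA was in none of the 10 windows and in 7.81% of all. These are matches of letters on both strands and do not show binding.

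Ccnd1, the deleted gene, checks the labels. Its brightest probe set, 1448698_at, read 9.17, 8.503 and 8.75 in wildtype placebo, 9.90, 10.82 and 9.35 in wildtype estradiol, 7.68, 7.52 and 7.48 in knockout placebo and 7.55, 7.44 and 7.24 in knockout estradiol. Every knockout array lay below every wildtype array, and among the wildtype arrays the 3 with estradiol lay above the 3 without. The knockout arrays averaged 7.48 and the wildtype arrays 9.42, a difference of -1.93. Among the 924 ways to arrange 6 arrays against 6 this is the most extreme, and the exact permutation test (two-sided) gives its smallest p, 0.00216. The test ignores treatment and takes placebo and estradiol arrays as interchangeable, though the wildtype arrays differed by treatment. Probe sets 1417420_at and 1417419_at differed by -0.90 and -1.003, again with no overlap and with the same exact permutation p. The signal left in knockout glands lay above the lower quartile of the array for all 3 probe sets, and since the position of the probes relative to the deletion is not known here it cannot be read as transcript.

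**Figure D1:**
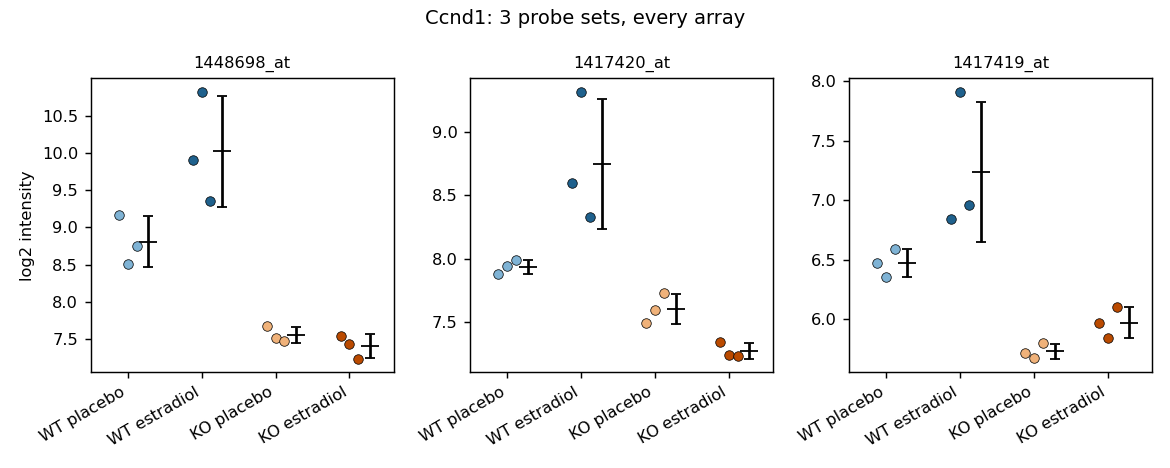
Log2 intensity (vertical axis) of the 3 Ccnd1 probe sets in each of the 12 arrays, by group (horizontal axis); points are arrays, and the bar beside them is the mean with its SD (n = 3). The knockout arrays of 1448698_at sit between 7.24 and 7.68 and all wildtype arrays at 8.503 or above, with wildtype estradiol array 2 highest at 10.82.

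Under estradiol, knockout glands had less Ccnd1 than wildtype glands. In limma the difference was 6.13-fold at 1448698_at (log2 difference -2.62 ± 0.31, SE, adjusted p = 0.0136) and 2.77-fold at 1417420_at (-1.47 ± 0.20, adjusted p = 0.0189), while 1417419_at missed the threshold (-1.26 ± 0.23, adjusted p = 0.0529). Under placebo the same 3 differences were -1.25, -0.33 and -0.74, none of which passed (adjusted p = 0.99996 for each). The call of 1448698_at was lost without knockout estradiol array 2 (-2.63, adjusted p = 0.0574) or array 3 (-2.53, adjusted p = 0.0796), in a fit of the 6 arrays concerned (adjusted p = 0.0776) and with the luminal score as a covariate (-2.16, adjusted p = 0.9996). In the same comparison 3 of 14 luminal markers (Krt19, Cldn7 and Cldn4) and 2 of 11 basal and myoepithelial markers (Cnn1 and Acta2) were also called lower in knockout. Over all probe sets 216 of 45037 (0.48%) were called. Without knockout estradiol array 2 or 3 there were 17 and 1 calls over all probe sets, and with the luminal score 0.

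The estradiol difference of Ccnd1 in wildtype glands was above 0 and did not pass the test. It was 1.22 at 1448698_at (95% interval 0.53 to 1.90, adjusted p = 0.120), 0.81 at 1417420_at and 0.76 at 1417419_at, and at all 3 probe sets every estradiol array lay above every placebo array. It passed without wildtype estradiol array 3 (1.55, adjusted p = 0.0493) and with array weights (1.37, adjusted p = 0.00375). Those fits called 222 and 11900 of all probe sets, in place of 396. In knockout glands the estradiol differences of the 3 Ccnd1 probe sets were -0.15, -0.33 and 0.24. The interaction, which subtracts the wildtype from the knockout response, was -1.37, -1.14 and -0.52 and did not pass at any of them (lowest adjusted p = 0.526). The array with the most Ccnd1, wildtype estradiol array 2, also had the highest luminal score of all 12, 2.21, and with that score as a covariate the wildtype difference was 0.96 (adjusted p = 0.789). Macrophage and fibroblast scores were also higher in wildtype estradiol (0.42 to 1.86 and 0.53 to 0.80) than in wildtype placebo (-0.87 to -0.34 and -0.93 to 0.11), and their part in any estradiol difference was not tested.

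Over the 12 arrays the 5 genes most like Ccnd1 among 18193, by the Pearson correlation of their brightest probe sets, were Abcc3 (0.96), the tight junction gene Cldn8 (0.96), Fcgbp (0.95), Urah (0.94) and Tmc4 (0.94). These arrays share the 4 groups and their differing tissue content. Of 13 measured genes that neighbour Ccnd1 on its chromosome, limma called 0 under placebo, under estradiol and in the average of both. At an unadjusted p under 0.05 there were 1, 2 and 3 of the 13, beside 1180, 5109 and 4174 of 45037 probe sets. Among them Ano1 and Mrgprf, named here after their values were seen, differed by -2.24 (adjusted p = 0.0773) and -1.52 (adjusted p = 0.167) under estradiol, and Ano1 by -1.55 in the average (adjusted p = 0.192).

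Ccnd2 encodes cyclin D2, the D-type cyclin known in ovary, testis and lymphoid cells as well as in many stromal cells. The brightest of its 7 probe sets, 1434745_at, read 11.65, 11.34 and 11.92 in wildtype placebo, 11.29, 11.84 and 11.59 in wildtype estradiol, 11.92, 12.15 and 11.41 in knockout placebo and 11.19, 11.66 and 12.14 in knockout estradiol. All 4 groups overlapped, and the highest and the lowest array were both knockout. The average difference of knockout from wildtype over both treatments was 0.14 ± 0.19 (SE, adjusted p = 0.853), with a 95% interval from -0.29 to 0.57. The upper end of that interval is a level 1.48 times that of wildtype, and it bounds only the average over both treatments. Within 1 treatment the 95% interval at this probe set reached higher, to 1.73 times wildtype under placebo and 1.62 times under estradiol.

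Across the 7 Ccnd2 probe sets the average genotype difference ran from -0.09 to 0.62, with 6 above 0 and none called. The exception in size was 1448229_s_at, whose suffix marks probes shared by several transcripts. It read 7.98, 8.18 and 8.31 in wildtype placebo, 7.38, 7.89 and 7.81 in wildtype estradiol, 8.78, 9.10 and 7.84 in knockout placebo and 8.32, 8.71 and 8.52 in knockout estradiol. Under estradiol its 3 knockout arrays lay above its 3 wildtype arrays, by 0.82 ± 0.28 (SE, 95% interval 0.20 to 1.45, adjusted p = 0.302), and under placebo the groups overlapped. The dimmer 1416123_at also separated the genotypes under estradiol (0.46, adjusted p = 0.611), whereas the 3 brightest sets there differed by 0.09, 0.18 and 0.25 with overlapping arrays. The probe sets differed among themselves, and the value 0.62 of 1448229_s_at over both treatments (95% interval 0.18 to 1.06) did not pass when adjusted over all probe sets (adjusted p = 0.422).

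No Ccnd2 probe set was called for estradiol in either genotype. Over its 7 probe sets the wildtype differences lay between -0.46 and 0.18 and the knockout differences between -0.29 and 0.12, with 0 calls in limma and 0 sets at an unadjusted p under 0.05. The wildtype arrays of 1448229_s_at did not overlap, with estradiol lower (-0.46, adjusted p = 0.582). At 1434745_at they were -0.06 and -0.16, and the wildtype value took the opposite sign with array weights (0.18) and without the placebo arrays poor in lymphocytes (0.08). The genes most like Ccnd2 over the 12 arrays were Brinp1 (0.84), Dsg1a (0.83), Ttc28 (0.83), Hnf4g (0.82) and Camkk2 (0.81).

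Ccnd3 encodes cyclin D3, widely expressed and needed for the expansion of early lymphocytes. Its brightest probe set, 1415907_at, was the steadiest of the 3 D-type cyclins' brightest sets, with an SD of 0.15 over the 12 arrays against 0.33 for Ccnd2 and 1.16 for Ccnd1. It read 10.58, 10.54 and 11.001 in wildtype placebo, 10.75, 10.54 and 10.86 in wildtype estradiol, 10.83, 10.75 and 10.74 in knockout placebo and 10.68, 10.96 and 10.76 in knockout estradiol. The groups overlapped in all 4 comparisons of this set. Knockout exceeded wildtype by 0.08 ± 0.10 on average (SE, adjusted p = 0.844), with a 95% interval from -0.14 to 0.30, whose upper end is 1.23 times the wildtype level. Within 1 treatment the upper end was 1.30 times wildtype under placebo and 1.32 times under estradiol. The estradiol differences of 0.01 in wildtype and 0.03 in knockout both took the opposite sign after quantile scaling (-0.015 and -0.012).

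A second Ccnd3 probe set, 1438805_at, behaved unlike the first. It read 8.54, 8.14 and 6.17 in wildtype placebo, 6.70, 7.79 and 6.28 in wildtype estradiol, 8.38, 6.18 and 8.67 in knockout placebo and 6.20, 8.56 and 7.36 in knockout estradiol. The arrays fell apart within each group and not by group: the 7 arrays with a lymphocyte score above 0 read 7.36 to 8.67, and the 5 with a score below 0 read 6.17 to 6.70. In the same arrays 1415907_at spanned 10.54 to 11.001 with no such division. The genotype difference of 1438805_at had an SE of 0.60 on average (difference 0.29, 95% interval -1.04 to 1.61), against 0.10 for the brightest set. The third, 1444323_at, stayed between 6.64 and 7.08.

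**Figure D2:**
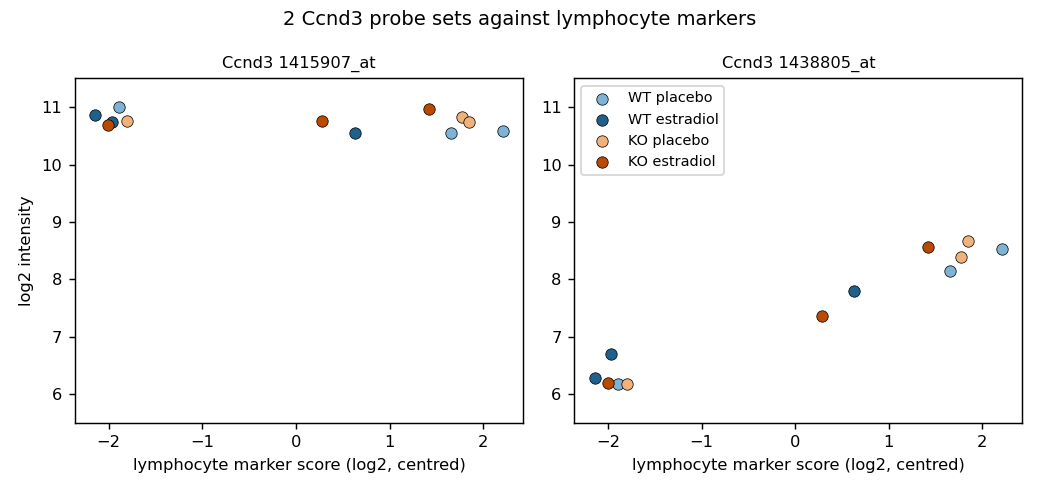
Log2 intensity of 2 Ccnd3 probe sets (vertical axis) against the lymphocyte marker score of the same array (horizontal axis, log2 units centred over the 12 arrays), coloured by group. At 1438805_at the arrays with a score above 0 lie at 7.36 or higher and the others at 6.70 or lower, while 1415907_at stays between 10.54 and 11.001 throughout.

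The genes most like the brightest Ccnd3 set were Coro1b (0.88), Gm31981 (0.86), Neurog2 (0.85), Rpap2 (0.83) and 4930486L24Rik (0.82), over 12 arrays in which that set varied little.

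Cdk4 encodes the kinase most closely tied to cyclin D1 in mammary epithelium. Its brightest probe set, 1422441_x_at, read 9.91, 9.72 and 9.64 in wildtype placebo, 10.35, 10.37 and 10.44 in wildtype estradiol, 9.94, 9.42 and 10.08 in knockout placebo and 9.92, 10.09 and 9.61 in knockout estradiol. The 3 wildtype estradiol arrays lay close together and above all 9 other arrays. The 3 probe sets gave much the same picture: estradiol minus placebo in wildtype was 0.63, 0.60 and 0.68 (SE 0.18, 0.15 and 0.17), about 1.55-fold, 1.52-fold and 1.61-fold. None passed when adjusted over all probe sets (adjusted p = 0.155, 0.116 and 0.108).

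In knockout glands the same 3 probe sets differed by 0.05, 0.06 and 0.12, with overlapping arrays. The interaction was -0.58, -0.55 and -0.57, and it did not pass (adjusted p = 0.928, 0.883 and 0.913). Knockout minus wildtype was close to 0 under placebo (0.06, 0.05 and 0.03) and -0.52, -0.50 and -0.54 under estradiol, where no arrays overlapped and no probe set was called (lowest adjusted p = 0.239). The Cdk4 difference in wildtype passed with array weights (0.66, adjusted p = 0.00297) and with the lymphocyte score as a covariate (0.76, adjusted p = 0.0477). It also passed without the placebo arrays poor in lymphocytes (0.57, adjusted p = 0.0438), a choice made after seeing the data. For estradiol in wildtype the same fits called 11900, 867 and 4393 of all probe sets, in place of 396, so these passes are not particular to Cdk4. The luminal score was also highest in wildtype estradiol, and with it as a covariate the difference was 0.60 (adjusted p = 0.751). Probe sets of 1 gene share their RNA and are not replicates of each other.

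Cdk6 encodes the second D-type cyclin kinase, prominent in blood-forming cells. Its brightest set, 1435338_at, read 8.81, 8.63 and 8.72 in wildtype placebo, 8.23, 9.15 and 8.63 in wildtype estradiol, 9.003, 8.77 and 9.13 in knockout placebo and 8.54, 8.65 and 8.66 in knockout estradiol. The 3 knockout estradiol arrays lay below the 3 knockout placebo arrays at this set and at 1455287_at (differences -0.35 and -0.30, adjusted p = 0.750 and 0.852), while wildtype arrays overlapped. At 1455287_at the 3 knockout placebo arrays (8.72, 8.48 and 8.62) lay above the 3 wildtype placebo arrays (8.20, 8.18 and 8.13), by 0.43 ± 0.28 (SE, adjusted p = 0.99996). This was the only set among the 23 outside Ccnd1 in which knockout exceeded wildtype without overlap under placebo, beside 2532 of all 45037 probe sets. The third set, 1460291_at, lay under the lower quartile on all 12 arrays and gave no usable level.

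**Figure D3:**
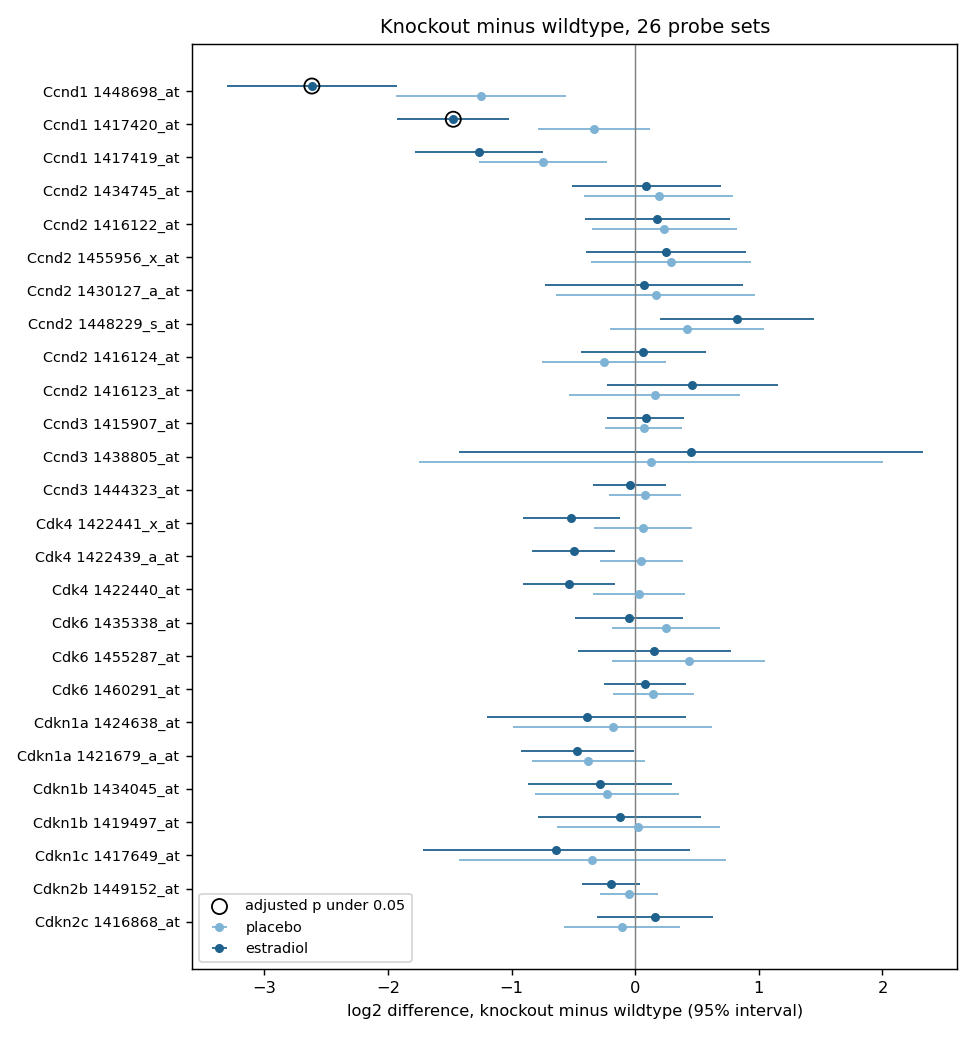
Knockout minus wildtype log2 difference (horizontal axis) of each of the 26 probe sets (vertical axis) under placebo and under estradiol, with 95% intervals from limma; black rings mark an adjusted p under 0.05. The ringed points are 2 Ccnd1 probe sets under estradiol at -2.62 and -1.47, and the intervals of all but 1 of the Ccnd2 and Ccnd3 sets span 0 in both treatments.

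Counted over the 26 probe sets, the genotype comparisons called few members. Under estradiol 2 of 26 were called, both of Ccnd1 and both lower in knockout, against 0.48% of all probe sets. Under placebo limma called 0 of the 26 and 0% of all probe sets, with 2 members and 1180 of 45037 probe sets at an unadjusted p under 0.05. In the average of both treatments it called 0 members and 0.00222% of all, that is 1 probe set, with 5 members and 4174 of all at an unadjusted p under 0.05. Groups did not overlap for 5 members under placebo (1 higher in knockout and 4 lower, against 7.54% of all probe sets) and for 10 under estradiol (2 higher and 8 lower, against 19.7%). The 8 lower sets were the 3 of Ccnd1, the 3 of Cdk4 and those of Cdkn1c and Cdkn2b, and the 2 higher ones belonged to Ccnd2. With 6 arrays against 6 this held for 3 members, the Ccnd1 sets (0.597% of all). Leaving Ccnd1 aside, limma called no cyclin, kinase or inhibitor in these 3 comparisons. The count under estradiol was 1 without knockout estradiol array 1 and 0 without array 2 or 3. The count in the average was 2 without wildtype estradiol array 1, 3 without array 2 and 1 without array 3.

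Cdkn2b, the INK4 inhibitor p15, was the member called for estradiol in wildtype. Its single probe set read 7.35, 7.20 and 7.46 in wildtype placebo, 7.88, 7.85 and 7.93 in wildtype estradiol, 7.27, 7.36 and 7.23 in knockout placebo and 7.54, 7.84 and 7.70 in knockout estradiol. In each genotype the 3 estradiol arrays lay above the 3 placebo arrays, with the wildtype estradiol arrays highest. It rose by 0.55 ± 0.11 in wildtype (SE, 1.46-fold, adjusted p = 0.0449), while the knockout difference of 0.41 ± 0.11 did not pass (adjusted p = 0.436, unadjusted p = 0.00304). The difference between these responses was -0.14 ± 0.15 (adjusted p = 0.997), and a difference between genotypes in the response of Cdkn2b was thus not shown.

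The Cdkn2b call lay close to the threshold. Of the 12 fits that leave out 1 array it held in 3, those without wildtype placebo array 3 and without knockout estradiol arrays 1 and 2. It was lost without any other array, with differences of 0.48 to 0.57 and adjusted p = 0.208 at the highest (without wildtype placebo array 2). It was also lost with the dimmest 40% of probe sets left out (adjusted p = 0.0572), after quantile scaling (0.53, adjusted p = 0.0700), with a variance trend and robust priors (adjusted p = 0.107), with the replicate block (adjusted p = 0.129), in a fit of the 2 groups only (adjusted p = 0.186) and with the luminal score as a covariate (0.61, adjusted p = 0.280), though the sign stayed in every fit. The basal and myoepithelial score lay between -0.77 and -0.03 in wildtype placebo, 0.67 and 1.27 in wildtype estradiol, -0.58 and -0.25 in knockout placebo and -0.14 and 0.04 in knockout estradiol. The part of these cells in the Cdkn2b difference was not tested.

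Cdkn2c, the INK4 inhibitor p18, read 10.38, 10.60 and 11.06 in wildtype placebo, 10.63, 10.96 and 11.31 in wildtype estradiol, 10.28, 10.74 and 10.69 in knockout placebo and 11.05, 11.11 and 11.21 in knockout estradiol. Knockout estradiol arrays lay above knockout placebo arrays, by 0.55 ± 0.21 (SE, adjusted p = 0.630), and wildtype arrays overlapped (0.29, adjusted p = 0.665). Its average genotype difference was 0.02, with a 95% interval from -0.31 to 0.36.

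Cdkn1a, the Cip/Kip inhibitor p21 that the tumour suppressor p53 is known to induce, had estradiol differences above 0 in both genotypes, none of which passed. The brightest set, 1424638_at, read 10.63, 11.21 and 9.80 in wildtype placebo, 11.31, 11.53 and 11.31 in wildtype estradiol, 10.64, 9.97 and 10.49 in knockout placebo and 11.30, 10.33 and 11.34 in knockout estradiol. Wildtype estradiol arrays lay above placebo arrays, and in knockout estradiol array 2 stayed within the placebo range. The dimmer set, 1421679_a_at, separated the treatments in both genotypes. The differences were 0.84 and 0.80 in wildtype (adjusted p = 0.402 and 0.123) and 0.63 and 0.71 in knockout (adjusted p = 0.754 and 0.487), with interactions of -0.21 and -0.09. The average of knockout minus wildtype was -0.29 at the first set and -0.42 at the other (95% interval -0.75 to -0.10, adjusted p = 0.756 and 0.450). At that dimmer set every knockout placebo array lay below every wildtype placebo array.

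Cdkn1c, the Cip/Kip inhibitor p57 made from an imprinted gene, had the widest spread of the inhibitors. It read 6.57, 7.40 and 8.34 in wildtype placebo, 8.71, 8.73 and 9.04 in wildtype estradiol, 6.67, 8.08 and 6.52 in knockout placebo and 8.20, 8.66 and 7.69 in knockout estradiol. Each placebo group held 1 high array, wildtype placebo array 3 and knockout placebo array 2, and these are the placebo arrays with lymphocyte scores below 0 (-1.89 and -1.80). The estradiol difference was 1.39 ± 0.49 in wildtype (SE, 95% interval 0.31 to 2.47, adjusted p = 0.280) and 1.10 ± 0.49 in knockout (adjusted p = 0.676). Without those 2 arrays, a choice made after seeing the data, the wildtype difference was 1.84 and passed (adjusted p = 0.0116). It also passed with array weights (1.48, adjusted p = 0.00444). Those fits called 4393 and 11900 of all probe sets for estradiol in wildtype, in place of 396. In wildtype placebo, array 3 was also the lowest in the skeletal muscle score and in knockout placebo array 2 was the highest. The estradiol arrays did not repeat the order by lymphocyte score. In knockout estradiol, array 2 had the highest lymphocyte score (1.42) and the highest Cdkn1c value (8.66), and array 1 (-2.00) read 8.20. In wildtype estradiol, array 2 (0.63) read 8.73, between 8.71 and 9.04.

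Cdkn1b, the Cip/Kip inhibitor p27, which cyclin D complexes are known to sequester, was not called for estradiol or genotype. Its brighter set, 1434045_at, read 8.995, 8.68 and 8.02 in wildtype placebo, 8.17, 8.35 and 8.18 in wildtype estradiol, 8.66, 7.98 and 8.37 in knockout placebo and 7.65, 8.32 and 7.89 in knockout estradiol. The groups overlapped in all comparisons. The estradiol differences were -0.33 in wildtype and -0.38 in knockout (adjusted p = 0.692 and 0.795). With array weights the wildtype difference was -0.47 and passed (adjusted p = 0.0443), in a fit that called 11900 of all 45037 probe sets. The genotype difference averaged -0.26, with a 95% interval from -0.67 to 0.15. In the other Cdkn1b set, 1419497_at, the estradiol differences were 0.16 and 0.01.

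**Figure D4:**
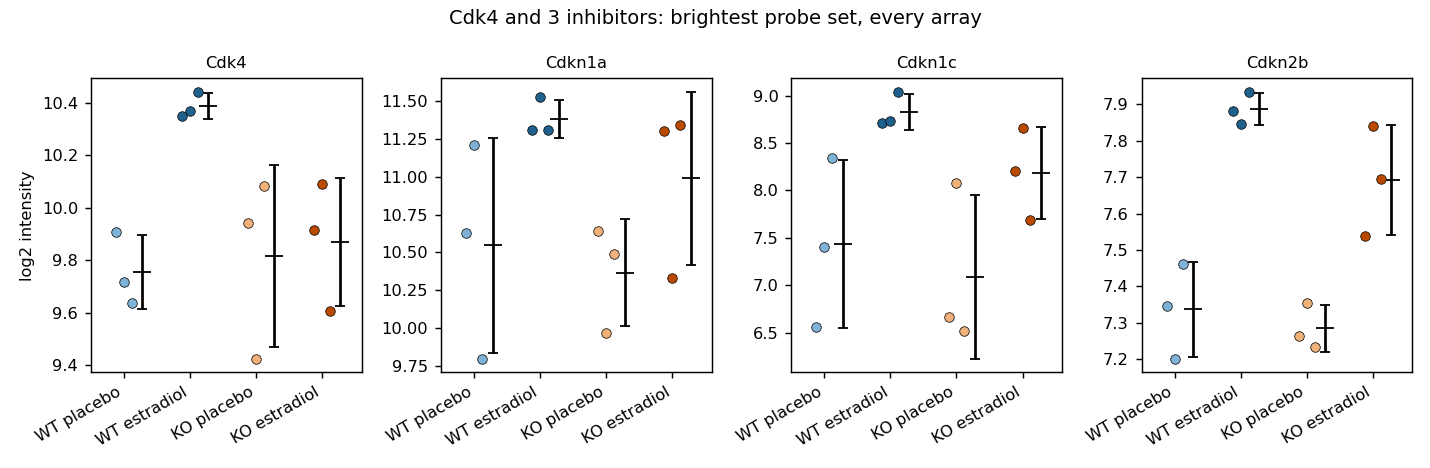
Log2 intensity (vertical axes, each with its own range) of the brightest probe sets of Cdk4, Cdkn1a, Cdkn1c and Cdkn2b in each array, by group; points are arrays, and the bar beside them is the mean with its SD (n = 3). The wildtype estradiol arrays have the highest group mean in each panel, and for Cdk4 they lie at 10.35 to 10.44, above all other arrays.

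**Figure D5:**
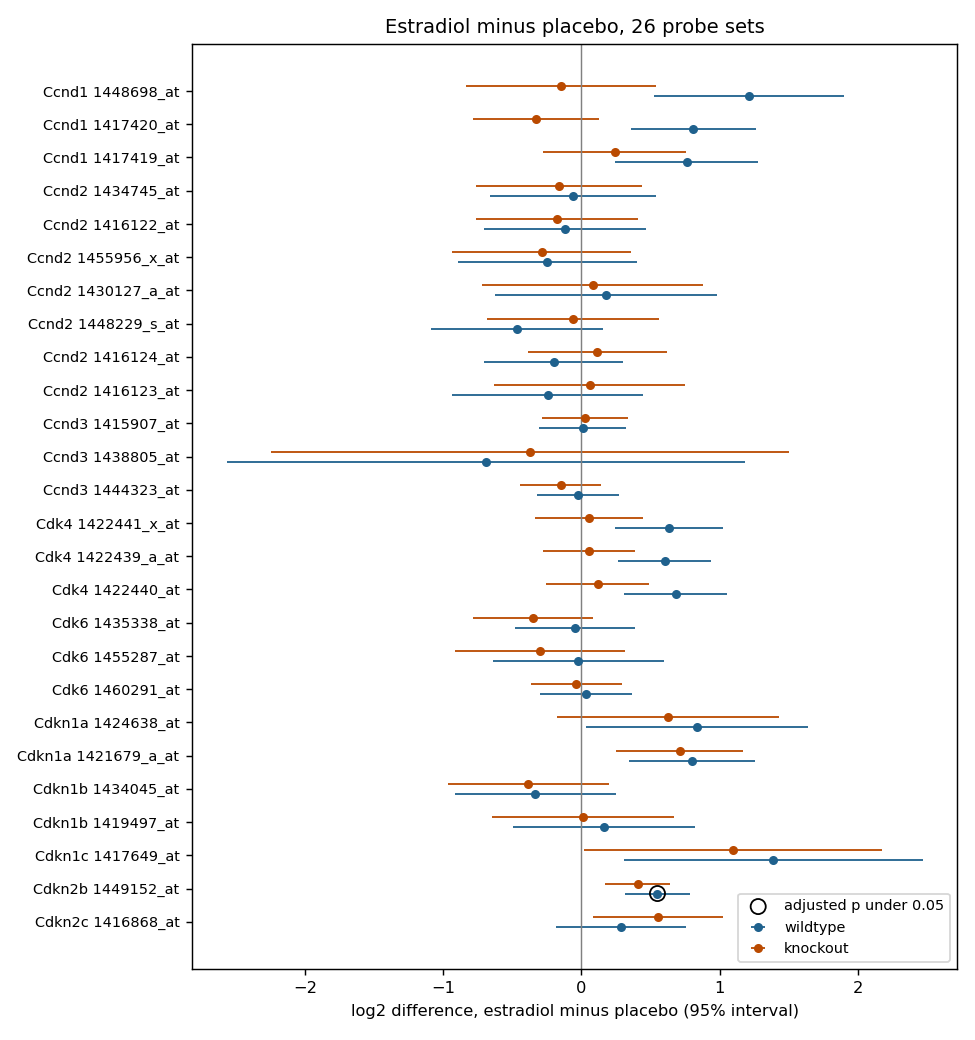
Estradiol minus placebo log2 difference (horizontal axis) of each of the 26 probe sets (vertical axis) in wildtype and in knockout, with 95% intervals from limma; the black ring marks an adjusted p under 0.05. Cdkn2b in wildtype, at 0.55, is the ringed point, and the Ccnd1 and Cdk4 sets lie at 0.60 to 1.22 in wildtype and -0.33 to 0.24 in knockout.

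Over all 26 probe sets, estradiol called 1 member in wildtype (Cdkn2b, higher), against 0.879% of all probe sets, and limma called 0 in knockout, against 0.04%, where 4 members and 3316 of all probe sets had an unadjusted p under 0.05. The 3 arrays of each treatment did not overlap for 11 members in wildtype (10 higher and 1 lower, against 15.1% of all probe sets) and for 7 in knockout (4 higher and 3 lower, against 12.8%). The 7 in knockout were spread over Ccnd1 (1 higher and 1 lower), Cdk6 (2 lower), Cdkn1a, Cdkn2b and Cdkn2c (1 higher each). The 10 higher sets in wildtype belong to Ccnd1, Cdk4, Cdkn1a, Cdkn1c and Cdkn2b. The median difference of the members was 0.10 in wildtype and 0.02 in knockout, beside -0.01 and -0.00052 over all probe sets. The wildtype count of 1 became 10 with array weights, 6 without the placebo arrays poor in lymphocytes and 2 without wildtype placebo array 3. The same fits called 11900, 4393 and 1990 of all 45037 probe sets, in place of 396. The member count was 0 in 8 of the 12 fits with 1 array fewer.

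In the interaction limma called 0 of the 26 members, against 0.0111% of all probe sets, with 5 members and 2386 of all at an unadjusted p under 0.05. Those 5 were the 3 Cdk4 sets and 2 Ccnd1 sets, each with a smaller estradiol difference in knockout. The 2 responses use separate arrays, but each member's values in the 2 genotypes share 1 estimate of spread.

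Beside the members, 29 genes of the Rb and E2F machinery, the G1/S kinases and their regulators were all measured. Some of them, such as Fbxo31 below, act on the members, so the list is not a readout downstream of them. In each of the 6 comparisons limma called 0 of the list, with 2 of 29 at an unadjusted p under 0.05 for estradiol in wildtype and 7 of 29 in knockout (beside 5277 and 3316 of 45037 probe sets) and 1 to 4 in the others. The smallest p in wildtype under estradiol was that of Fbxo31, a subunit of a ubiquitin ligase that targets cyclin D1 (1.52 ± 0.31, SE, adjusted p = 0.0568), followed by the Cdk2-binding Cks1b (0.39, adjusted p = 0.422). In knockout under estradiol it was that of E2f7, a repressor of E2F targets (-1.33, adjusted p = 0.372), and of the activator E2f3 (-0.50, adjusted p = 0.419). In the average genotype effect it was that of cyclin E1, Ccne1 (0.33, adjusted p = 0.398), which works after the D-type cyclins, and of the phosphatase Cdc25a (0.26, adjusted p = 0.545). For genotype under placebo it was that of Ccne1 (0.36) and Cks1b (0.45), both with an adjusted p of 0.99996. Knockout was lower for genotype under estradiol, at E2f3 (-0.53, adjusted p = 0.125) and E2f7 (-0.85, adjusted p = 0.349). The same 2 genes led the interaction (-0.75 and -1.45, adjusted p = 0.479 and 0.756). The list's median genotype difference was 0.06 under placebo and -0.06 under estradiol. The list's median difference was 0.02 in wildtype and -0.20 in knockout under estradiol, beside -0.01 and -0.00052 over all probe sets. Scores of this list were 0.16, -0.12 and 0.22 in the knockout placebo arrays and -0.14, 0.08 and -0.11 in knockout estradiol. Within each of these groups the arrays had the same order by lymphocyte score. The order was also the same in wildtype placebo but not in wildtype estradiol. The part of lymphocyte content in the list's differences was not tested.

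Of 24 E2F target and S phase genes 23 were measured and limma called 0. At an unadjusted p under 0.05 there was 1 for estradiol in each genotype and 1 for genotype under placebo. Over all 45037 probe sets there were 5277 for estradiol in wildtype, 3316 in knockout and 1180 for genotype under placebo. The smallest p in wildtype under estradiol was that of Gins2, a subunit of the replicative helicase (0.38, adjusted p = 0.386), and in knockout that of the repair enzyme Ung (-0.66, adjusted p = 0.571). With estradiol 15 of the 23 lay above 0 in wildtype and 1 of 23 in knockout. The medians were 0.03 and -0.32, beside -0.01 and -0.00052 over all probe sets. The interaction was below 0 in all 23 (median -0.39, beside 0.02 over all probe sets), with no gene at an unadjusted p under 0.05. Knockout minus wildtype was above 0 in 22 of 23 under placebo (median 0.25, beside 0.02 over all probe sets). It was below 0 in 21 of 23 under estradiol (median -0.12, beside 0.05). Genes measured on the same arrays are not replicates of each other. The score of this list was 0.63, -0.69 and 0.74 in the knockout placebo arrays, high in the 2 arrays with high lymphocyte scores and low in the third, and -0.54, 0.36 and -0.31 in knockout estradiol. The part of lymphocyte content in these signs was not tested.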

How the data were processed

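The deposited values are log2 intensities of 45101 probe sets on 12 arrays, which the authors made with RMA (and limma 2.9.16, per the submitters' processing notes). They were used as deposited, without the 64 control probe sets. limma 3.58.1 in R 4.3.3 fitted 4 group means to each of 45037 probe sets, with moderated variances and Benjamini-Hochberg adjustment over all of them in each of 6 comparisons. The script was tested on simulated data. Names come from the platform's annotation, with 34945 probe sets of 1 gene, 932 of several and 9160 of none, and were used only for the first kind. Every member probe set is named. Of each other list, reduced to the brightest probe set per gene, up to 4 called genes or the 2 with the smallest p were eligible, and 5 genes like each D-type cyclin. Members and lists were chosen with earlier results of these data known. A marker score is the mean, over a list's genes, of each gene's log2 value minus its own average. Alternatives covered probe set choice, dim probe sets, scaling, variance prior, array weights, arrays in the fit, replicate number, marker scores and each array. The labels name separate animals, and the arrays correlated but none were identical.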

Additional observations from a re-analysis of the deposited data

How the results depend on the processing

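The call of Cdkn2b was held or lost as described above, and Ccnd1 kept its sign in every fit of both genotype comparisons and of estradiol in wildtype. The count of called members for estradiol in wildtype was 1. It was 0 with the dimmest 40% of probe sets left out, quantile scaling, a variance trend with robust priors, the replicate block, the luminal score as a covariate or only the 2 groups concerned, 3 with the lymphocyte score as a covariate, 6 without the placebo arrays poor in lymphocytes, 10 with array weights, and 0 to 2 with 1 array fewer. The count for genotype under estradiol was 2, against 1 with 1 probe set per gene, the mean of a gene's probe sets or the replicate block, 0 with the luminal score or only the 2 groups concerned, and 0 to 2 with 1 array fewer. The count for the average genotype effect was 0, against 3 with array weights or the lymphocyte score and 0 to 3 with 1 array fewer. Over all probe sets, estradiol in wildtype gave 396 calls, but 11900 with array weights, 4393 without the placebo arrays poor in lymphocytes, 867 with the lymphocyte score, 201 with the replicate block, 83 with only the 2 groups, 24 with the luminal score and 122 to 1990 with 1 array fewer; genotype under estradiol gave 216, but 1148 with the lymphocyte score, 502 without those arrays, 453 with array weights, 44 with only the 2 groups, 43 with the replicate block, 0 with the luminal score and 1 to 284 with 1 array fewer. Array weights also gave 487 calls for genotype under placebo in place of 0, 240 for the average in place of 1, 96 for the interaction in place of 5 and 52 for estradiol in knockout in place of 18. The lymphocyte score gave 122 for the average, 45 for the interaction and 58 for estradiol in knockout. With 1 array fewer these 4 counts ran from 0 to 3, 1 to 69, 0 to 15 and 14 to 24, and the cause was not tested.

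The replicate numbers of the labels were not taken to pair the arrays: deviations of equally numbered arrays from their group means correlated at -0.713 to 0.594, and no comparison had all 3 above 0.1. As a hint only, the replicate block changed the member counts as given and left Cdkn2b at an adjusted p of 0.129.

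Of 1420 differences recomputed for 10 genes in 6 comparisons, 71 turned sign, none of them past the threshold, and the largest main difference to do so was 0.35 in size. The cause was not tested. With the mean of all probe sets of a gene the sign turned in estradiol in wildtype for Ccnd3 (-0.24), estradiol in knockout for Ccnd3 (-0.16), genotype under estradiol for Cdk6 (0.060) and the interaction for Ccnd2 (0.11). After quantile scaling the sign turned in estradiol in wildtype for Ccnd3 (-0.015) and estradiol in knockout for Ccnd3 (-0.012). With array weights the sign turned in estradiol in wildtype for Ccnd2 (0.18), estradiol in knockout for Ccnd2 (0.062) and Cdk4 (-0.11), genotype under placebo for Cdkn2b (0.036) and the interaction for Ccnd3 (-0.14), Cdkn1a (0.22), Cdkn1b (0.029) and Cdkn1c (0.037). With the lymphocyte score as a covariate the sign turned in estradiol in wildtype for Ccnd3 (-0.058) and Cdk6 (0.088). With the luminal score as a covariate the sign turned in genotype under placebo for Cdkn2c (0.087), genotype under estradiol for Ccnd3 (-0.067) and Cdk6 (0.58), the average genotype effect for Ccnd3 (-0.032) and the interaction for Ccnd3 (-0.070) and Cdk6 (0.063). Without the placebo arrays poor in lymphocytes, chosen after seeing the data, the sign turned in estradiol in wildtype for Ccnd2 (0.079), estradiol in knockout for Cdk4 (-0.14) and the interaction for Ccnd3 (-0.14) and Cdkn1b (0.042). In estradiol in wildtype the range with 1 array fewer crossed 0 for Ccnd2 (-0.21 to 0.082), Ccnd3 (-0.073 to 0.16) and Cdk6 (-0.29 to 0.17). In estradiol in knockout the range with 1 array fewer crossed 0 for Ccnd2 (-0.40 to 0.075), Ccnd3 (-0.052 to 0.085) and Cdk4 (-0.14 to 0.19). In genotype under placebo the range with 1 array fewer crossed 0 for Ccnd3 (-0.014 to 0.21), Cdk4 (-0.071 to 0.26), Cdkn1a (-0.56 to 0.15), Cdkn1c (-0.84 to 0.10), Cdkn2b (-0.12 to 0.011) and Cdkn2c (-0.26 to 0.081). In genotype under estradiol the range with 1 array fewer crossed 0 for Ccnd2 (-0.15 to 0.33), Ccnd3 (-0.0011 to 0.16), Cdk6 (-0.27 to 0.19) and Cdkn2c (-0.012 to 0.33). In the average genotype effect the range with 1 array fewer crossed 0 for Cdk6 (-0.012 to 0.22) and Cdkn2c (-0.060 to 0.12). In the interaction the range with 1 array fewer crossed 0 for Ccnd2 (-0.34 to 0.14), Ccnd3 (-0.13 to 0.099), Cdkn1a (-0.54 to 0.16), Cdkn1b (-0.26 to 0.22) and Cdkn1c (-0.74 to 0.20). With 3 arrays per group and 8 residual degrees of freedom, the number of arrays limits the precision. No signal was set against background, since only summarised values were used.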
